A study of Mus musculus with 12 samples.

Results

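Interferon gamma is a cytokine made chiefly by activated T cells and NK cells. It binds a receptor of the chains IFNGR1 and IFNGR2, the receptor activates the kinases JAK1 and JAK2, and the kinases pass the signal to the nucleus, where genes such as Irf1 are turned on. IRF1 is itself a transcription factor that drives antigen presentation genes, and SOCS1 is an inhibitor that the pathway induces and that blocks the same kinases. The type I interferons use the receptor chains IFNAR1 and IFNAR2 with JAK1 and TYK2. In tumors this pathway is known for raising MHC class I, the chemokines that attract T cells, and the ligand PD-L1. The levels of 9 genes of this pathway were examined in 12 bulk tumors, namely the ligand (Ifng), its receptor chains (Ifngr1, Ifngr2), their kinases (Jak1, Jak2), a target and an inhibitor (Irf1, Socs1) and the type I receptor chains (Ifnar1, Ifnar2). They were picked by gene symbol from 34678 symbols, with earlier results of these data known, and all 9 were among the 15350 genes with a mean of at least 0.1 FPKM (fragments per kilobase of transcript, scaled to the fragments mapped in that tumor), which were tested.

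The tumors grew in C57BL/6 mice from LLC1-shLkb1 cells, a mouse lung carcinoma line in which an shRNA lowers Lkb1 (gene Stk11). The study placed such tumors under the skin and in the left chest, and does not state the site of the sequenced tumors. The mice were of both sexes and 5 to 8 weeks old. Treatment started 7 days after implantation. Each arm held 3 tumors. The vehicle arm received vehicle and control IgG. The palbociclib arm received this CDK4/6 inhibitor at 100 mg per kg by mouth on days 1, 2 and 3 of each 7-day cycle, and the anti-PD-1 arm received 200 µg per mouse of an antibody that blocks the PD-1 receptor of T cells, 3 times per cycle. The combination arm received both agents, and tumors were taken 2 weeks after the start. The shRNA was present in every arm, and Stk11 lay between 7.9 and 11.5 FPKM in the 12 tumors, with no tumor of unmodified cells to set beside it. Nothing in the labels says more than that these were separate tumors, so p-values measure the spread between them.

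Depth was estimated from the steps of low values at 14900000 to 20300000 fragments per tumor. This was the most frequent estimate among low genes with whole steps, given by 40.2% of them, so the depth is approximate. At that depth Ifng was close to the limit, while each of the other 8 genes had an estimated 150 fragments or more in every tumor. The mean over 12 tumors was 0.53 FPKM for Ifng, at the 19.7 percentile of the genes tested, and between 7.79 FPKM for Ifnar2 and 26.0 FPKM for Jak1, which lay at the percentiles 63.0 and 87.6. The pooled SD within arms on the log2(FPKM + 0.1) scale was 1.12 for Ifng, 0.35 for Irf1 and 0.36 for Socs1, against a median of 0.24 over all genes tested. For the 4 receptor chains and the kinases Jak1 and Jak2 it lay between 0.12 and 0.17. Some tumors held more RNA of other tissue: summed muscle markers reached 164 FPKM in palbociclib tumor 3 and 150 FPKM in combination tumor 2, summed skin markers reached 360 FPKM in palbociclib tumor 2, and summed adipocyte markers reached 275 FPKM in combination tumor 1. Combination tumor 2 also had the lowest level of the leukocyte gene Ptprc, 0.841 FPKM against 1.19 to 3.36 FPKM elsewhere.

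Positions are on GRCm38 from GENCODE M21, and all 9 genes are protein-coding. Ifng is at chr10:118441046-118445892 and Ifngr1 at chr10:19591949-19610229, both on the plus strand. Ifnar2 (chr16:91372783-91405589), Ifnar1 (chr16:91485238-91507441) and Ifngr2 (chr16:91547072-91565623) form a cluster on the plus strand with Il10rb, a receptor chain for interleukin 10, which starts 0.575 kb after Ifnar2. Socs1 is on the minus strand of the same chromosome at chr16:10782240-10785536. Jak2 (chr19:29251828-29313080) lies 54.4 kb from Cd274, which encodes PD-L1, and 97.8 kb from Pdcd1lg2, which encodes PD-L2. Jak1 is at chr4:101152367-101265282 on the minus strand and Irf1 at chr11:53770014-53778374 on the plus strand.

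The sequence before the start of 4 of the genes is shown because these 4 had the largest palbociclib effects below, and because Irf1 and Socs1 carry the letters that the pathway's factors are known to bind. The windows are the 250 bases before the RefSeq start (GRCm38.p6), 5′ to 3′ on the gene's strand. Capitals mark matches on either strand to TTCNNNGAA, the GAS element of interferon gamma responsive genes, or to GAAANNGAAA, the core of the ISRE, which interferon regulatory factors bind. Irf1 is read at chr11:53769764-53770013, Socs1 at chr16:10785537-10785786 (minus strand), Ifng at chr10:118440796-118441045 and Ifngr1 at chr10:19591699-19591948.
Irf1: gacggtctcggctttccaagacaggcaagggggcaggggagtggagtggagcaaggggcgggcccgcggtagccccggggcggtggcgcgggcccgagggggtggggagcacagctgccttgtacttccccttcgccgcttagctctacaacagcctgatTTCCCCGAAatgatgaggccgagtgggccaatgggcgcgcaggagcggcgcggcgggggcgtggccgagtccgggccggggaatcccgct
Socs1: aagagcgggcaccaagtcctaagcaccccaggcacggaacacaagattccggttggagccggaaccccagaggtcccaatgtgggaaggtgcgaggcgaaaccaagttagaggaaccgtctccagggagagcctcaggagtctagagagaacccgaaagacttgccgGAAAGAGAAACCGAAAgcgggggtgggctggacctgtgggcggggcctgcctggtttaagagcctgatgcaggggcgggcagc
Ifng: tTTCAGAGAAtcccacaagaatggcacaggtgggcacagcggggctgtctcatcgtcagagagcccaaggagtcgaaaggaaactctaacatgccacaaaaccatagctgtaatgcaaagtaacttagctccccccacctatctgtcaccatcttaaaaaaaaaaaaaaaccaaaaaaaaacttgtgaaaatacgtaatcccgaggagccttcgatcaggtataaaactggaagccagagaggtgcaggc
Ifngr1: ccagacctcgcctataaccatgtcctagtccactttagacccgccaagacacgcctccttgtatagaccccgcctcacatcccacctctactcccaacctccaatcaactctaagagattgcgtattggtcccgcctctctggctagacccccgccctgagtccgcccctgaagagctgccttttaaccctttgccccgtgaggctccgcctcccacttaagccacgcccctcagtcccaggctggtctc

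Irf1 held a GAS match from 90 to 82 bases before its start. Socs1 held 2 ISRE core matches, from 83 to 74 and from 77 to 68 bases before its start, which overlap each other. Ifng held a GAS match at the far end of its window, from 249 to 241 bases before the start, and Ifnar2 held a GAS match from 214 to 206 bases before it. The other 5 genes, Ifngr1 among them, held neither set of letters. Of 32851 windows of the same length, 7.02% held the GAS letters and 2.98% the ISRE core letters. These matches describe letters only.

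Ifng, the ligand, was measured by 126 fragments over all 12 tumors, and its values were whole multiples of the worth of 1 fragment to within 0.00208 of a fragment. In the vehicle arm the level was 0.321, 0 and 0.327 FPKM, which are 6, 0 and 8 fragments. The 0 in vehicle tumor 2 allows a level of up to 0.161 FPKM, the worth of 3 fragments, and the upper end of its two-sided exact 95% Poisson interval is 0.198 FPKM. In the palbociclib arm it was 0.307, 0.891 and 0.95 FPKM from 6, 16 and 19 fragments. Palbociclib tumor 1 thus lay within the range of the vehicle arm and the other 2 lay above it.

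In the anti-PD-1 arm Ifng was 0.390, 0.102 and 0.0895 FPKM from 9, 2 and 2 fragments. In the combination arm it was 1.91, 0.145 and 0.920 FPKM from 37, 3 and 18 fragments. Combination tumor 1 was the highest of all 12 tumors, and combination tumor 2 fell within the range of the anti-PD-1 arm. The exact 95% Poisson interval was 1.35 to 2.64 FPKM for combination tumor 1 and 0.0299 to 0.423 FPKM for combination tumor 2, so these tumors of the same arm differed by more than counting error. Intervals cover counting error only. Summed over each arm, the fragments numbered 14 for vehicle, 41 for palbociclib, 13 for anti-PD-1 and 58 for the combination.

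**Figure D1:**
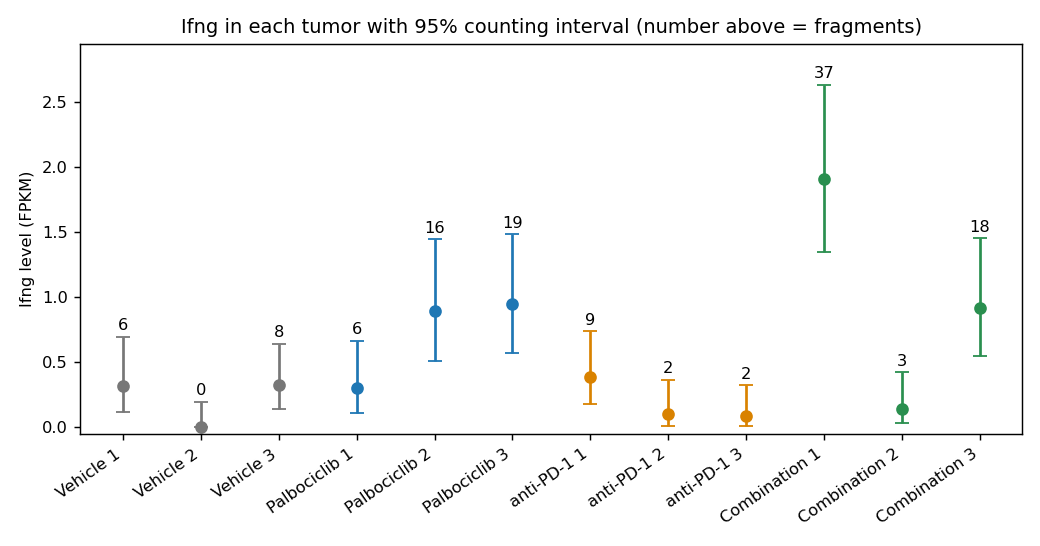
Level of Ifng in FPKM (vertical axis) in each of the 12 tumors, with the exact 95% Poisson interval as the bar and the number of fragments above it. The vehicle and anti-PD-1 tumors rest on 0 to 9 fragments each, and within the palbociclib and combination arms 1 tumor each stays at 6 and 3 fragments.

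The order of arm means was combination (0.993 ± 0.887 FPKM, SD, n = 3), palbociclib (0.716 ± 0.356), vehicle (0.216 ± 0.187) and anti-PD-1 (0.194 ± 0.170), and each arm overlapped the next. The design holds palbociclib with and without anti-PD-1, so the palbociclib effect was taken as the mean of 2 differences, palbociclib minus vehicle and combination minus anti-PD-1. For Ifng it was 1.55 on the log2(FPKM + 0.1) scale (SE 0.57), with a limma p of 0.0192 that became 0.172 after Benjamini-Hochberg adjustment over all genes tested. An exact permutation of the arm labels within each difference gave p = 0.03, of a smallest possible 0.005. The size rests on the constant added, since it was 0.57 with 1 FPKM added and 2.32 with 0.01 FPKM. Without vehicle tumor 2, which was at 0, it was 1.20.

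Markers of T cells and NK cells, the usual sources of the ligand, were set beside it. All 8 T cell markers had a positive palbociclib effect with an unadjusted p under 0.05 and none passed adjustment, with a median of 1.42, and their summed level was 2.67 to 6.57 FPKM in the vehicle arm, 8.41 to 15.1 FPKM in the palbociclib arm, 1.97 to 5.06 FPKM in the anti-PD-1 arm and 5.11 to 16.8 FPKM in the combination arm. Of 9 NK cell markers, 2 did so, with a median of 0.54. A positive effect with an unadjusted p under 0.05 was found for 2166 of all 15350 genes tested. The NK cell marker sums were 40.2 to 73.6, 78.5 to 94.6, 67.5 to 79.4 and 52.1 to 83.8 FPKM in the same order. No marker of either list was at 0 throughout. The ratio of Ifng to Cd3e, a chain of the T cell receptor complex, had a palbociclib effect of 0.20 on the log2 scale (exact permutation p = 0.62, adjusted over 5 ratios 0.62), and its sign turned to -0.12 with 1 FPKM added and to -0.0093 without anti-PD-1 tumor 3. The ratio of Ifng to Nkg7, a granule gene of T and NK cells, had an effect of 0.77 (exact permutation p = 0.255, adjusted 0.475), which was -0.032 with 1 FPKM added. The part of cell numbers in the level of Ifng was not tested, and in bulk tumors fewer cells of a type and less RNA per cell cannot be told apart.

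Ifngr1, the chain that binds the ligand, was at 15.6, 14.8 and 16.0 FPKM with vehicle and at 17.3, 18.2 and 19.3 FPKM with palbociclib. It was at 14.4, 16.5 and 16.7 FPKM with anti-PD-1 and at 20.9, 16.1 and 20.6 FPKM with the combination. All palbociclib tumors were above all vehicle tumors, and combination tumors 1 and 3 were above every other tumor, while combination tumor 2 lay among the anti-PD-1 tumors. Its palbociclib effect was small with a small spread, 0.25 (SE 0.079, limma p 0.0085, adjusted p 0.131, exact permutation p = 0.015). It was 0.31 without combination tumor 2, with a limma adjusted p of 0.0506, and the adjusted p reached 0.254 without palbociclib tumor 3.

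Ifngr2, the chain that carries the signal into the cell with JAK2, was at 17.8, 12.5 and 16.9 FPKM with vehicle and at 16.4, 16.0 and 15.5 FPKM with palbociclib. With anti-PD-1 it was at 15.09, 15.48 and 14.96 FPKM, and with the combination at 18.3, 16.3 and 17.1 FPKM. All combination tumors were above all anti-PD-1 tumors, and vehicle tumor 2 was the lowest of the 12. Ifngr2 had a palbociclib effect of 0.11 (limma adjusted p 0.478). The ratio of Ifngr1 to Ifngr2 differed by 0.14 on the log2 scale (exact permutation p = 0.15, adjusted 0.475), so a shift between the chains was not shown.

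Jak1, the kinase that both receptors share, was at 24.3, 32.8 and 28.8 FPKM with vehicle and at 26.1, 25.9 and 25.6 FPKM with palbociclib. It was at 24.8, 25.1 and 27.9 FPKM with anti-PD-1 and at 24.6, 22.2 and 23.4 FPKM with the combination. The combination arm was the lowest and overlapped neither the palbociclib nor the anti-PD-1 arm, though it did overlap vehicle tumor 1. For Jak1 the palbociclib effect was -0.14 (limma adjusted p 0.310, exact permutation p = 0.065), and the difference of combination from vehicle was -0.28 (SE 0.11, limma p 0.0234, adjusted p 0.239).

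Jak2, the kinase of the IFNGR2 chain, lay between 9.13 and 12.5 FPKM in all 12 tumors. Its arm means were 11.5 ± 0.76, 11.8 ± 0.97, 10.3 ± 1.16 and 10.4 ± 1.34 FPKM in the vehicle, palbociclib, anti-PD-1 and combination arms (SD, n = 3), and each arm overlapped its neighbours in order. The palbociclib effect was 0.022 (limma adjusted p 0.904), and its sign turned under quantile normalization (-0.043). Its neighbours on the chromosome had larger effects, 0.63 for Cd274 (SE 0.20, limma adjusted p 0.134) and 1.90 for Pdcd1lg2 (SE 0.60, limma adjusted p 0.131). These 2 and 1 other of the 12 genes tested near the members had an unadjusted p under 0.05, as had 20.5% of all genes tested. None of the 12 passed adjustment.

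Irf1, the target that carries the GAS letters printed above, was at 16.7, 16.0 and 18.4 FPKM with vehicle and at 24.2, 31.1 and 26.8 FPKM with palbociclib. It was at 17.7, 14.1 and 13.9 FPKM with anti-PD-1 and at 36.7, 15.5 and 30.4 FPKM with the combination. Of the 6 tumors given palbociclib, 5 were above all 6 others, and the exception, combination tumor 2, lay below vehicle tumor 2 at 15.5 FPKM. The palbociclib effect was 0.73 (SE 0.18, limma p 0.00197, adjusted p 0.0885, exact permutation p = 0.01). Without combination tumor 2, the tumor low in Ptprc and high in muscle markers, the effect was 0.91 with a limma adjusted p of 0.00582, and without anti-PD-1 tumor 1 it was 0.78 with an adjusted p of 0.0486. In the other 10 leave-outs it did not pass, with an adjusted p of up to 0.223 without anti-PD-1 tumor 3. Without anti-PD-1 tumor 1 the unadjusted limma p of Irf1 was 0.00232, no lower than with all tumors. In that fit 772 of all genes passed adjustment, against 48 with all tumors. The difference of combination from anti-PD-1 also passed without combination tumor 2 (1.14, limma adjusted p 0.0447).

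Socs1, the inhibitor with the 2 overlapping ISRE core matches, was at 6.99, 3.35 and 5.74 FPKM with vehicle and at 9.10, 10.7 and 13.3 FPKM with palbociclib. It was at 5.70, 7.43 and 5.71 FPKM with anti-PD-1 and at 9.72, 10.08 and 14.97 FPKM with the combination. All 6 tumors given palbociclib were above all 6 others, which held for 1.02% of the genes tested, and combination tumor 2 took part in this, unlike in Ifng, Ifngr1 and Irf1. The palbociclib effect was 0.97 (SE 0.19, limma p 0.00029, adjusted p 0.0543), and the exact permutation p of 0.005 is the smallest that the design allows. The adjusted p went under 0.05 when only genes with a mean of at least 1 FPKM were tested (0.0494), and without vehicle tumor 1 (0.0281). It also did without anti-PD-1 tumor 1 (0.0378) and without combination tumor 2 (0.0409), and reached 0.164 without anti-PD-1 tumor 3. Of these fits under 0.05, only that without vehicle tumor 1 lowered the unadjusted limma p of Socs1 (0.000119). This p was 0.000293 with the filter, 0.00101 without anti-PD-1 tumor 1 and 0.000535 without combination tumor 2. In the last 2 of these fits 772 and 262 of all genes passed adjustment, against 48 with all tumors. The ratio of Socs1 to Irf1 differed by 0.24 on the log2 scale (exact permutation p = 0.38, adjusted 0.475).

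Ifnar1, a chain of the type I receptor, was at 10.5, 11.5 and 10.2 FPKM with vehicle and at 9.10, 10.9 and 8.56 FPKM with palbociclib. It was at 7.86, 9.02 and 9.25 FPKM with anti-PD-1 and at 8.72, 7.96 and 9.76 FPKM with the combination. All vehicle tumors were above all anti-PD-1 and all combination tumors. The difference of anti-PD-1 from vehicle was -0.30 (SE 0.12, limma p 0.0289, adjusted p 0.580) and that of combination from vehicle -0.28 (SE 0.12, limma p 0.0364, adjusted p 0.275), and these comparisons share the vehicle tumors. In Ifnar1 the palbociclib effect was -0.081 (limma adjusted p 0.599).

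Ifnar2, the other chain of that receptor, lay between 6.64 and 9.88 FPKM in all 12 tumors, and both ends were vehicle tumors. Its arm means were 7.90 ± 1.73, 7.85 ± 0.28, 7.49 ± 0.67 and 7.93 ± 0.52 FPKM in the vehicle, palbociclib, anti-PD-1 and combination arms (SD, n = 3). Its palbociclib effect came to 0.047 (limma adjusted p 0.810) and -0.015 under quantile normalization. The ratio of Ifnar1 to Ifnar2 differed by -0.13 on the log2 scale (exact permutation p = 0.305, adjusted 0.475).

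**Figure D2:**
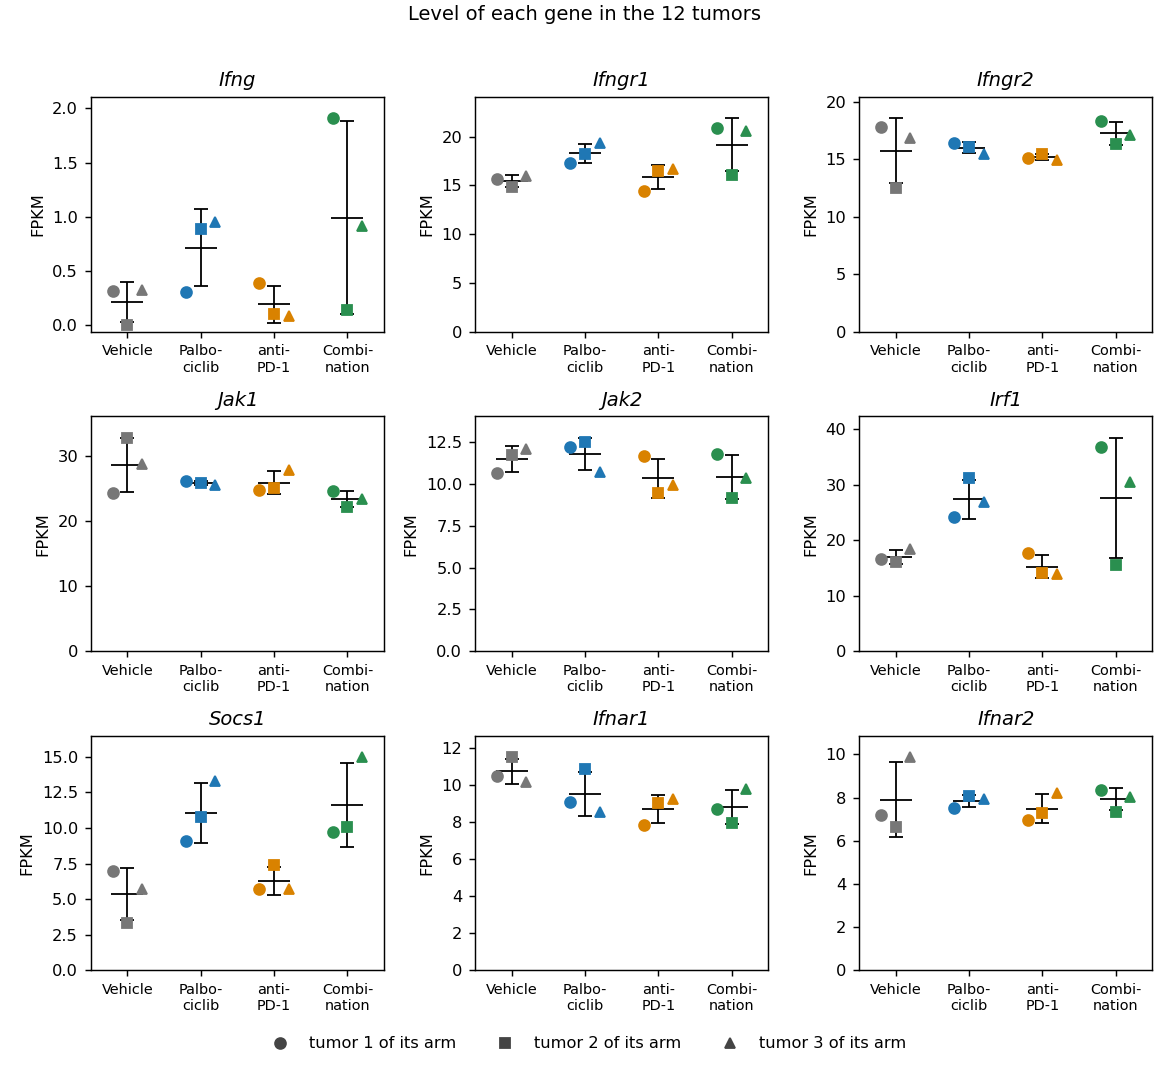
Level in FPKM (linear vertical axes) of the 9 genes in the 12 tumors by arm, with a symbol per tumor, a bar at the arm mean and whiskers of 1 SD (n = 3). Socs1 is higher in all 6 tumors given palbociclib, Irf1 in 5 of them, Ifngr1 shifts by little, and the kinases and type I receptor chains overlap between most arms.

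Over the 9 genes, none passed an adjusted p of 0.05 in any of the 7 limma comparisons. In the palbociclib effect 0.313% of all genes tested passed it and 20.5% had an unadjusted p under 0.05, which was so for 4 of the 9 genes (Ifng, Ifngr1, Irf1 and Socs1, all positive). The median effect was 0.11 for the 9 genes and 0.055 for all genes tested. With each of the 12 tumors left out in turn, the effect lay between 1.20 and 1.98 for Ifng, 0.22 and 0.31 for Ifngr1, 0.60 and 0.91 for Irf1, and 0.82 and 1.08 for Socs1, which takes in the tumors high in muscle, skin or adipocyte markers. For palbociclib against vehicle the shares of all genes were 0.143% and 13.8%, and 2 of the 9 genes (Irf1 and Socs1) had an unadjusted p under 0.05. The arms did not overlap, with palbociclib higher, for Ifngr1, Irf1 and Socs1, and for 12.9% of all genes. With 3 tumors against 3, an exact permutation test cannot go below 0.1.

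For anti-PD-1 against vehicle 0.0% of all genes passed adjustment (limma, 0 genes) and 8.4% had an unadjusted p under 0.05, which was so for 1 of the 9 (Ifnar1). It was also the 1 gene of the 9 whose arms did not overlap, with anti-PD-1 lower, as for 7.09% of all genes. Ifng differed by 0.019 in this comparison and Irf1 by -0.17, with limma adjusted p of 1.0 and 0.877. For combination against vehicle the shares were 0.013% and 17.0%, and 5 of the 9 genes had an unadjusted p under 0.05, with Socs1 (1.13), Irf1 (0.61) and Ifngr1 (0.30) higher and Jak1 and Ifnar1 lower. Of these, Socs1 and Ifngr1 did not overlap on the higher side (10.8% of all genes) and Ifnar1 on the lower side (11.6%).

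Combination and palbociclib differed little in these genes. Of all genes, 0.00651% passed adjustment and 4.52% had an unadjusted p under 0.05, and 0 of the 9 genes did either (limma). Jak1 was the 1 gene without overlap, lower in the combination, as for 9.15% of all genes. The difference was 0.083 for Ifng with an SE of 0.80, which is larger than the difference, and it was -0.072 for Irf1 (SE 0.25) and 0.059 for Socs1 (SE 0.26). For combination against anti-PD-1 the shares were 0.00651% and 11.8%. The genes with an unadjusted p under 0.05 were Ifngr1 (0.27), Irf1 (0.77) and Socs1 (0.86), all higher. Socs1 and Ifngr2 did not overlap on the higher side, as for 11.4% of all genes, and Jak1 on the lower side, as for 7.49%.

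The interaction, the effect of palbociclib with anti-PD-1 minus that without it, asks whether the antibody changed the response. No gene passed adjustment (0.0%) and 5.73% had an unadjusted p under 0.05 (limma), with 0 of the 9 genes among them. The differences were 0.064 for Ifng (SE 1.13), 0.094 for Irf1 (SE 0.36), -0.22 for Socs1 (SE 0.37) and 0.029 for Ifngr1 (SE 0.16). The effects without and with anti-PD-1 were 1.52 and 1.58 for Ifng, 0.68 and 0.77 for Irf1, 1.07 and 0.86 for Socs1, and 0.24 and 0.27 for Ifngr1.

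**Figure D3:**
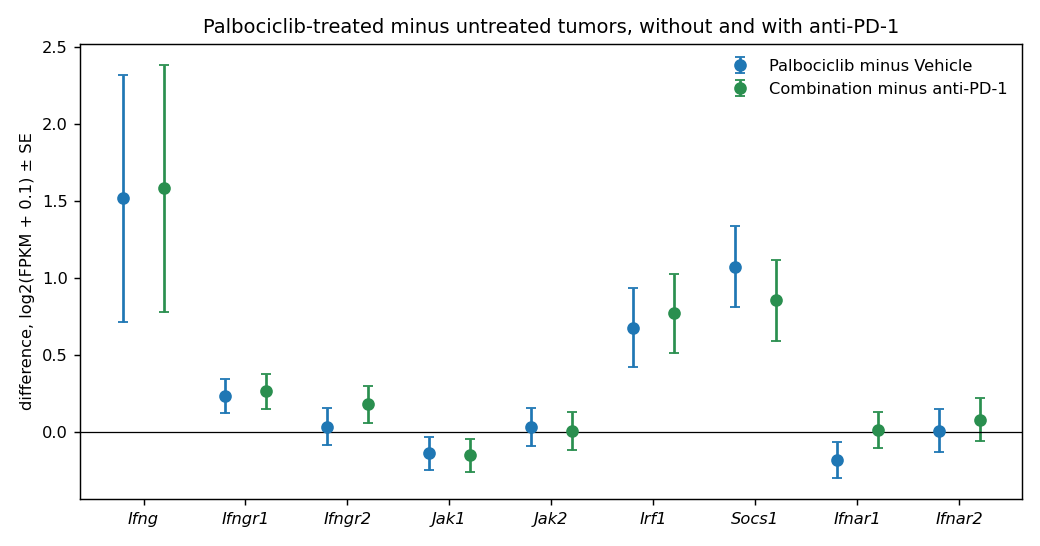
Difference on the log2(FPKM + 0.1) scale with its SE (vertical axis) of palbociclib minus vehicle and of combination minus anti-PD-1 for each of the 9 genes, 3 tumors in each arm. These comparisons share no tumor, and for Ifng, Ifngr1, Irf1 and Socs1 both differences lie above 0, with a wide SE for Ifng.

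The rest of the pathway was examined by role. Of the 20 other interferon genes listed (type I and type III ligands), 10 were at 0 in all tumors and none reached a mean of 0.1 FPKM, and Ifnb1, the first type I interferon made by infected or stimulated cells, gave 10 fragments over the 12 tumors. Stat2 (0.38, limma adjusted p 0.112) and Irf9 (0.36, adjusted p 0.123), parts of the complex that carries the type I signal, did not pass in the palbociclib effect, nor did the kinases Tyk2 (0.054, adjusted p 0.663) and Jak3 (-0.41, adjusted p 0.249). Of 6 other interferon regulatory factors tested, 4 had an unadjusted p under 0.05, against 20.5% of all genes tested in either direction. None of the 6 passed, with 0.82 for Irf7, which type I interferon induces (adjusted p 0.0885), and 1.5 for Irf4, a lymphocyte factor (adjusted p 0.0911).

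Of 11 negative regulators tested, 3 had an unadjusted p under 0.05 on the higher side and 1 on the lower, and none passed, in limma. Over all genes tested, 20.5% had such a p in either direction. Ptpn6, a phosphatase of blood cells, had an effect of 0.94 (adjusted p 0.147) and Usp18, an inhibitor at the type I receptor, one of 0.62 (adjusted p 0.210). Socs3 had -0.30 (adjusted p 0.456) and the phosphatase Ptpn2 -0.049 (adjusted p 0.769), so the effect of Socs1 was not seen in every inhibitor of the list. Of 14 genes tested that drive Ifng expression, 9 had an unadjusted p under 0.05, all higher, and none passed. The median was 0.72, with 1.23 for Tbx21, the T-bet factor of interferon gamma producing T cells (adjusted p 0.0816), and 1.14 for Il12rb1, a chain of the interleukin 12 receptor (adjusted p 0.0950).

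Among 32 interferon gamma targets, 8 rose, 30 had an unadjusted p under 0.05 on the higher side, and the median palbociclib effect was 1.25, in limma. Other markers differed in the same comparison, none past adjustment: 3 of 4 neutrophil markers were lower with an unadjusted p under 0.05 (median -1.69), 3 of 5 adipocyte markers were higher (median 2.83), and 2 of 7 macrophage markers were higher and 1 lower (median 0.51). With an unadjusted p under 0.05, 2 of 3 B cell markers tested were higher, and 2 of 7 endothelial and 2 of 6 fibroblast markers were lower. Such a p was found for 20.5% of all genes tested, in either direction. Summed neutrophil markers were 29.2 to 504 FPKM in the vehicle arm, 13.7 to 29.9 for palbociclib, 43.2 to 254 for anti-PD-1 and 12.8 to 79.6 for the combination. In the same order, summed adipocyte markers were 1.24 to 4.40, 5.47 to 112, 0.813 to 4.75 and 1.16 to 275 FPKM, and summed macrophage markers 122 to 192, 181 to 260, 115 to 224 and 121 to 225 FPKM. No marker of the neutrophil, adipocyte and macrophage lists was at 0 throughout, and the part of any of these cell types in the target levels was not tested. The 8 targets were the peptide loading and processing genes Tapbp (0.72, adjusted p 0.0339), Tap1 (0.94, 0.0399) and Psmb9 (1.20, 0.0399) and the interferon-inducible GTPases Gbp3 (1.46, 0.0339), Gbp2 (1.79, 0.0462), Irgm2 (1.44, 0.0399), Irgm1 (1.15, 0.0419) and Igtp (1.54, 0.0433). Cxcl9, a chemokine for T cells, had the larger value 2.83 with an adjusted p of 0.0846, and Ciita, the master regulator of MHC class II, had 1.99 with 0.110. Of 18 type I interferon targets, Ifit2 rose (0.85, limma adjusted p 0.0399) and 16 had an unadjusted p under 0.05. The median of these 18 was 1.48 in palbociclib against vehicle and 0.010 in combination against anti-PD-1. In palbociclib against vehicle, Gbp3 (1.85) and the type I targets Oasl2 (1.49), Ifit2 (1.24), Rtp4 (1.24) and Xaf1 (1.18) rose, with limma adjusted p of 0.0382 for Oasl2 and 0.0386 for the others. These 9 targets that passed in the palbociclib effect all fell short when any of 8 of the 12 tumors was left out, and all 9 passed without vehicle tumor 1, anti-PD-1 tumor 1 or combination tumor 2. Without those tumors 695, 772 and 262 of all genes passed adjustment, against 48 with all tumors.

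The interaction separated the lists by value. Of all genes tested, 5.73% had an unadjusted p under 0.05 in the interaction, in either direction. In the type I targets 16 of 18 had an unadjusted p under 0.05, all lower, with a median of -1.57 and an interaction of -1.68 for Isg15, and none passed adjustment (limma). In the interferon gamma targets 1 of 32 did so, with a median of -0.11, and the median was 0.064 for the 9 genes and -0.014 for all genes tested. Stat2 (-0.64), Irf9 (-0.72) and Irf7 (-1.47) also had an unadjusted p under 0.05, with limma adjusted p of 0.799, 0.764 and 0.736. So had 2 of the 11 negative regulators tested, both lower, among them Usp18 (-1.80, limma adjusted p 0.763). Whether the lists differ from each other was not tested.

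**Figure D4:**
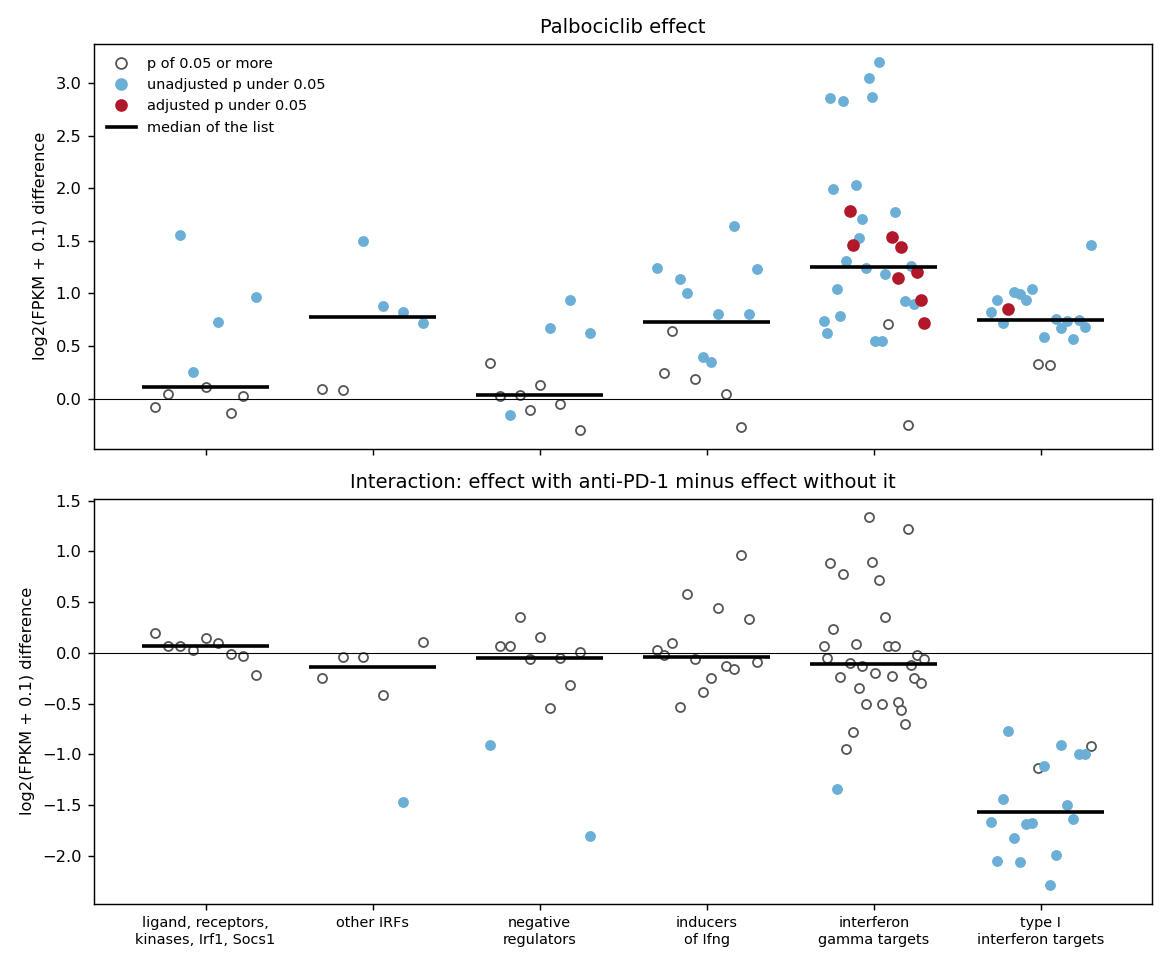
Palbociclib effect (upper panel) and interaction (lower panel) on the log2(FPKM + 0.1) scale for each gene of 6 lists, with the list median as a bar and the symbol's fill giving the limma p. In the interaction the medians of the 9 genes and of the interferon gamma targets lie near 0. Single interferon gamma targets run from -1.34 to 1.33, and the 18 type I targets all lie below 0.

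The genes whose levels followed each of these most closely were found by Pearson's r on the log2 scale over the 12 tumors, among genes with a mean of at least 1 FPKM, and are a description of tumors that share arms and leukocyte content. For Ifng they were Gimap4 (r = 0.95), Themis2 (0.936) and Glipr2 (0.936), the first a GTPase of lymphocytes, and with arm means subtracted Gbp4 (0.955) and Themis2 (0.948) were among the closest. For Irf1 they were Plbd1 (0.962), Lsp1 (0.962) and Pdcd1lg2 (0.955), and within arms Ptk2b (0.97), Ptprc (0.933) and AB124611 (0.931). Ptprc, the CD45 gene of all leukocytes, thus followed Irf1 within arms, and its part in the level of Irf1 was not tested. Combination tumor 2 was low in both, with 0.841 FPKM for Ptprc and 15.5 FPKM for Irf1. Combination tumors 1 and 3 had 3.21 and 2.89 FPKM for Ptprc and 36.7 and 30.4 FPKM for Irf1. The correlation without combination tumor 2 was not computed. For Ifngr1 Lyrm2 (0.927) and Itgal (0.91) were among the closest.

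Socs1 had other partners, Pop7 (0.967), Tex264 (0.958) and Nipsnap3b (0.954), and within arms Scara3 (0.951) and Coa4 (0.941) were among the closest. Within arms its r with the summed T cell markers was 0.357 and with Ptprc 0.332, against 0.669 and 0.933 for Irf1, each over 12 tumors. The closest genes were Gm14139 (0.943), Rnft1 (0.927) and Gm14124 (0.922) for Ifngr2, Phf21a (0.935), Cep170 (0.933) and Scaper (0.925) for Jak1, and Thap6 (0.878), Rnf19b (0.839) and Dclre1c (0.819) for Jak2. They were Trerf1 (0.908), Hps3 (0.881) and Gnaq (0.872) for Ifnar1 and Mcm8 (0.905), St3gal1 (0.869) and Clec7a (0.849) for Ifnar2.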

How the data were processed

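The authors deposited 1 table per tumor of FPKM values for 34745 entries. The submitters' processing notes name HISAT2, GRCm38 and mm10, and its version, the counting tool and the annotation are not given in the sources used here. Of the entries, 67 repeated a symbol and the one with the highest mean was kept. Genes with a mean of at least 0.1 FPKM were tested with limma (version 3.58.1, R 4.3.3) after adding 0.1 and taking log2 (1 mean per arm, trended eBayes, Benjamini-Hochberg adjustment over 15350 genes), and the script was tested on simulated data. The constant makes differences of low genes too small. Ratios and single genes used exact two-sided permutation over 400 relabelings within the palbociclib effect. Fragments were recovered from whole steps of low values (5459 of 6767 low genes were whole to within 0.05 fragments).

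The members and lists were chosen with earlier results of these data known. All 9 genes were named, with list genes past adjustment, or else the 2 of smallest p, and a fixed set of pathway genes. Alternatives were other pseudocounts, filters and scalings, no trend, a replicate block, only 2 arms, and leaving out each tumor. In vehicle with anti-PD-1 alone, all 3 same-numbered pairs of tumors had a correlation of deviations above 0.1, and so had some differently numbered pairs. Some items of these lists are not reported here.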

Additional observations from a re-analysis of the deposited data

How the results depend on the processing

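No member passed adjustment under most alternatives, and the exceptions lie in the palbociclib effect, where 1 did with a mean of at least 1 FPKM (Socs1), and in leaving out tumors. The number with an unadjusted p under 0.05 in combination against vehicle was 5, and 3 both on the TPM scale and with only the 2 arms compared. With 1 tumor left out, members past adjustment ranged from 0 to 2 in the palbociclib effect and from 0 to 1 in combination against anti-PD-1. Members with an unadjusted p under 0.05 ranged from 1 to 4 in palbociclib against vehicle, 0 to 2 in anti-PD-1 against vehicle, 1 to 5 in combination against vehicle, 1 to 4 in combination against anti-PD-1, 4 to 5 in the palbociclib effect and 0 to 1 in the interaction. Counts over 1.5 times away from the reported ones came from leaving out vehicle tumors 1 and 2, anti-PD-1 tumor 1 and each of the 3 combination tumors. The cause was not tested.

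The ratio of Ifng to Cd3e turned from 0.20 to -0.12 with 1 FPKM added, and ranged from -0.0093 to 0.44 with 1 tumor left out, and that of Ifng to Nkg7 turned from 0.77 to -0.032 with 1 FPKM added, where few fragments limit both. Jak2 turned to -0.043 under quantile normalization and to -0.0047, -0.0088 and -0.024 without vehicle tumor 1, anti-PD-1 tumor 2 or combination tumor 1 (highest 0.068 with 1 tumor left out), and Ifnar2 to -0.015 under quantile normalization and -0.0094 without vehicle tumor 2 (highest 0.13).

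All genes past adjustment in the palbociclib effect numbered 48, and 0 without a trend, 11 with no filter, 70 with a mean of at least 1 FPKM, 129 with the replicate block, and 0 to 772 with 1 tumor left out (772 without anti-PD-1 tumor 1, 695 without vehicle tumor 1). In palbociclib against vehicle they numbered 22, and 34 on the TPM scale, 33 with no filter, 1 under quantile normalization, 6 without a trend, 51 with the replicate block and 0 with only the 2 arms. The arms share replicate numbers. Over 18 same-numbered pairs the correlation of deviations ran from -0.255 to 0.523 with a median of 0.0102, and 8 were above 0.1. All 3 pairs were above 0.1 in vehicle with anti-PD-1 (0.523, 0.161 and 0.294), and in no other pair of arms. In these arms vehicle tumor 3 with anti-PD-1 tumor 2 reached 0.215, and vehicle tumor 2 with anti-PD-1 tumor 3 reached 0.175. The differently numbered pairs that held tumor 1 of either arm ran from -0.454 to -0.216. Deviations of the 3 tumors of an arm sum to 0, so these correlations depend on each other and cannot show a pairing by number. For anti-PD-1 against vehicle the replicate block left 0 members past adjustment and 1 with an unadjusted p under 0.05, as without it, and 0 of all genes past adjustment. For the other comparisons the numbers were read as names only, and the block changed no member's call, with 0 past adjustment in the palbociclib effect.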
